A study of Mus musculus and Homo sapiens with 33 samples.

Results

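Annexins are cytosolic proteins that bind acidic phospholipids of membranes when calcium rises, each through a conserved core of repeats and a variable N-terminal tail that decides its partners. They are known for resealing the torn plasma membrane, for steps of exocytosis and endocytosis, and for limiting inflammation outside the cell, and lung epithelium expresses several of them. The 10 genes described here, Anxa1 to Anxa9 and Anxa11, were found by their symbol among 38924 Ensembl genes of a count matrix from KPL cells, a murine lung adenocarcinoma line. They were chosen because earlier results of the same comparison had them higher together, so their values are given as a description, without a test, and support nothing about that comparison. The family was not uniformly higher: of the 10 genes, 7 had a higher estimate in treated cells, Anxa3 and Anxa9 had a lower one, and Anxa8 had 0 reads in every library.

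The comparison set 3 control libraries, named for ethanol in the sample descriptions, against 3 libraries of KPL cells given 4-hydroxytamoxifen (4-OHT) over 72 hours, with the concentration spelled 10 nm, which per the labels deletes Lin9, the gene of a core subunit of the MuvB complex. Both groups are KPL cells, and the alleles and the recombinase behind the name are not given in the labels. All 4-OHT libraries carry the drug and, per the labels, the deletion. Effects of the drug itself and of the loss of Lin9 therefore cannot be told apart. The labels do not say that the 3 libraries of a group came from separate cultures, so the spread between them may be technical. ChIP-seq samples of the series were not analysed here.

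The libraries held between 5859826 and 5913942 counted reads, and mitochondrially encoded genes took 1.56% to 1.66% of them. Lin9 was counted at 156, 124 and 159 reads in control and at 108, 107 and 101 reads in 4-OHT libraries. Its whole-gene count fell by 0.49 on the log2 scale (SE 0.11, adjusted p 0.0011 in the edgeR test). Lin9 reads thus remained in every 4-OHT library, and the extent of the deletion was not tested. Of the lung epithelial markers, Epcam, Cdh1, Krt8 and Krt18 were well expressed, Nkx2-1 was low (6.51 ± 1.29 CPM in control and 4.74 ± 0.522 CPM in 4-OHT, mean ± SD, n = 3 each; CPM is reads per 1000000 of the scaled library size), and the surfactant genes Sftpc and Sftpa1 had 0 reads. Epcam and Cdh1 fell, with log2 fold changes of -0.38 and -0.14 (edgeR adjusted p = 4.4e-12 and 0.0010). The summed CPM of all 8 markers was 4182 to 4225 in control and 4109.9 to 4216 in 4-OHT libraries. Most of this sum came from Krt8 and Krt18, with control means of 1840 and 1557 CPM, so it says little of the other markers. Summed markers of other cell types stayed low in all libraries, between 7.09 and 10.1 CPM for 6 fibroblast genes, 1.54 and 5.31 CPM for 5 leukocyte genes, and 7.36 and 9.94 CPM for 4 endothelial genes, with Lum and Cd3e among those at 0. In such bulk RNA, a change in the share of cells in some state and a change of RNA per cell cannot be told apart.

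The promoters of the annexins differ in sequence, and those of 4 members, picked by their estimates, are shown as examples. Anxa5 and Anxa2 had the 2 largest higher estimates, Anxa1 a smaller one and Anxa4 one near 0. Anxa11, with an estimate above that of Anxa1, is not printed, and Anxa3 and Anxa6 had no promoter window. Each line gives the 250 bases before the most upstream start with a RefSeq window (GRCm38.p6). Lines run 5′ to 3′ on the strand of the gene, in lower case with motif matches in capitals. For Anxa4 and Anxa11 the start of this window lies inside the RefSeq gene span, which on chromosome 6 reaches 86793634 for Anxa4. The motifs searched on both strands were the CHR element bound by MuvB (TTTGAA or TTCGAA), the TEAD site through which YAP acts (GGAATG), the AP-1 site (TGANTCA), the CCAAT box (CCAAT), the TATA box (TATAAA) and the GC box (GGGCGG). No 2 matches overlapped.
Anxa5, minus strand, chr3:36475888-36476137: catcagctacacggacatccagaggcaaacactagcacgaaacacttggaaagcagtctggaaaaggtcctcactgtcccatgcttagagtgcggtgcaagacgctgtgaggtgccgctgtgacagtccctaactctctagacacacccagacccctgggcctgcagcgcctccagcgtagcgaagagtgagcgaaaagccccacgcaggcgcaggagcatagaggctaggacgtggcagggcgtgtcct
Anxa2, plus strand, chr9:69453433-69453682: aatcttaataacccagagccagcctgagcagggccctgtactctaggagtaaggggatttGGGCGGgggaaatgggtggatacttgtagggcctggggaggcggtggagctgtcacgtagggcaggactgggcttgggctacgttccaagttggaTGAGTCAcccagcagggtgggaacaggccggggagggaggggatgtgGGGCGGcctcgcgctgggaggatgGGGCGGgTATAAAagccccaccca
Anxa1, minus strand, chr19:20390672-20390921: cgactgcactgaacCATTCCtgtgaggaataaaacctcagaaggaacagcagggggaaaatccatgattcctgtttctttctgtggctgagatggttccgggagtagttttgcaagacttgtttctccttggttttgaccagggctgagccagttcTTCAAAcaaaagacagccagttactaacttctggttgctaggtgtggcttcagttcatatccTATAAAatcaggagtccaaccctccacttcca
Anxa4, minus strand, chr6:86793585-86793834: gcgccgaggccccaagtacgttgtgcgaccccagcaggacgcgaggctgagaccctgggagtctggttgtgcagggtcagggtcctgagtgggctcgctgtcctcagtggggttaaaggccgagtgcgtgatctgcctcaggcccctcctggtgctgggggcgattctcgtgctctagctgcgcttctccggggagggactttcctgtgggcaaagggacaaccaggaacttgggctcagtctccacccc

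RefSeq windows of 300 bases (250 before and 50 after a start) were held for 8 of the 10 members, in 11 windows since some have a second start. In the Anxa1 window a TTTGAA match on the reverse strand began 94 bases before the start, a TEAD letter match began at -236 and a TATA box at -32. The Anxa2 window held an AP-1 match at -95, a TATA box at -17 and GC boxes at -190, -48 and -24. None of the motifs was found in the windows of Anxa5 and Anxa9, and the upstream Anxa4 window held only a GC box 6 bases past the start. TTTGAA was in 4 of the 11 annexin windows (Anxa1, the second Anxa4 start, Anxa7 and Anxa8) and in 17.9% of all 32851 windows of the table. TTCGAA was in 0 annexin windows and in 1.56% of all, the TEAD letters in 1 and 14.7%, the AP-1 letters in 1 and 7.81%, CCAAT in 0 and 37.4%, TATAAA in 2 and 13.6%, and GGGCGG in 5 and 35.7%. Base composition also varied, from 44.7% G and C with 4 CG pairs in the upstream window of Anxa7 and 47.3% with 3 pairs in that of Anxa1 to 75.7% with 36 pairs in the upstream window of Anxa9, against a median of 52.7% and 7 pairs over all windows. These matches are letters in a window and say nothing of binding.

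**Figure D1:**
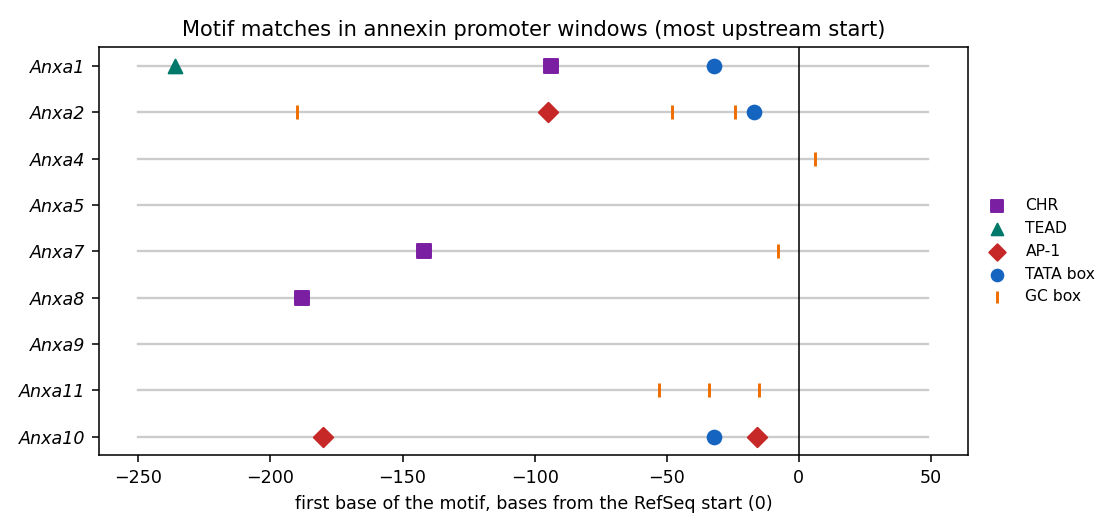
Motif matches in the most upstream promoter window of 8 annexin members and of Anxa10. The x axis gives the distance (bases) of the motif's first base from the RefSeq start that the window was built on. For Anxa4 and Anxa11 that start lies inside the RefSeq gene span. The windows share no common motif arrangement, and those of Anxa5 and Anxa9 hold no match.

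Annexins with larger estimates were led by Anxa5, which binds exposed phosphatidylserine and forms lattices over membrane lesions (ENSMUSG00000027712, chromosome 3, 36448923 to 36475887, RefSeq coordinates on GRCm38.p6 here and for the members that follow). It was counted at 4032, 4122 and 3938 reads in control and at 4781, 4702 and 4797 reads in 4-OHT libraries. Every 4-OHT library lay above every control library, and the mean was 16.6% higher, 806 ± 11.2 against 691 ± 16.5 CPM, a log2 fold change of 0.22 (SE 0.03). Anxa2, which joins S100A10 in a tetramer that bridges membranes and the cortical actin (chromosome 9, 69453683 to 69491792), had 6891, 6864 and 6868 control reads and 7972, 7802 and 8055 reads after 4-OHT. Here too the groups were apart, at 1178.5 ± 1.17 and 1345 ± 26.1 CPM, with a log2 fold change of 0.19 (SE 0.03). The 3 control values of Anxa2 varied by 0.0993%, less than the 1.21% that counting error alone gives on average at that depth, whereas the 4-OHT values varied by 1.94%.

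Anxa6, the annexin with a doubled core, which links membranes and cholesterol traffic (chromosome 11, 54978953 to 55033471), was counted at 1408, 1489 and 1412 reads in control and 1634, 1613 and 1651 reads in 4-OHT libraries. The groups did not overlap, and the log2 fold change was 0.17 (SE 0.04), from 246 ± 8.21 to 276 ± 4.08 CPM. Anxa1, a substrate of growth factor receptor kinases whose secreted form acts on formyl peptide receptors (chromosome 19, 20373434 to 20390671), had 4345, 4425 and 4345 control reads against 4620, 4843 and 4956 after 4-OHT. The lowest 4-OHT library, replicate 1, stood closest to the control range, and the log2 fold change was 0.12 (SE 0.03), from 749 ± 9.07 to 814 ± 29.0 CPM. Anxa11, which tethers RNA granules to lysosomes (chromosome 14, 25842127 to 25886804), had 926, 1038 and 902 reads in control and 1125, 1049 and 1046 in 4-OHT libraries. Its groups overlapped in CPM because control replicate 2 (178.3 CPM) lay above 4-OHT replicates 2 (177.0 CPM) and 3 (177.5 CPM), and the log2 fold change was 0.15 (SE 0.05).

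**Figure D2:**
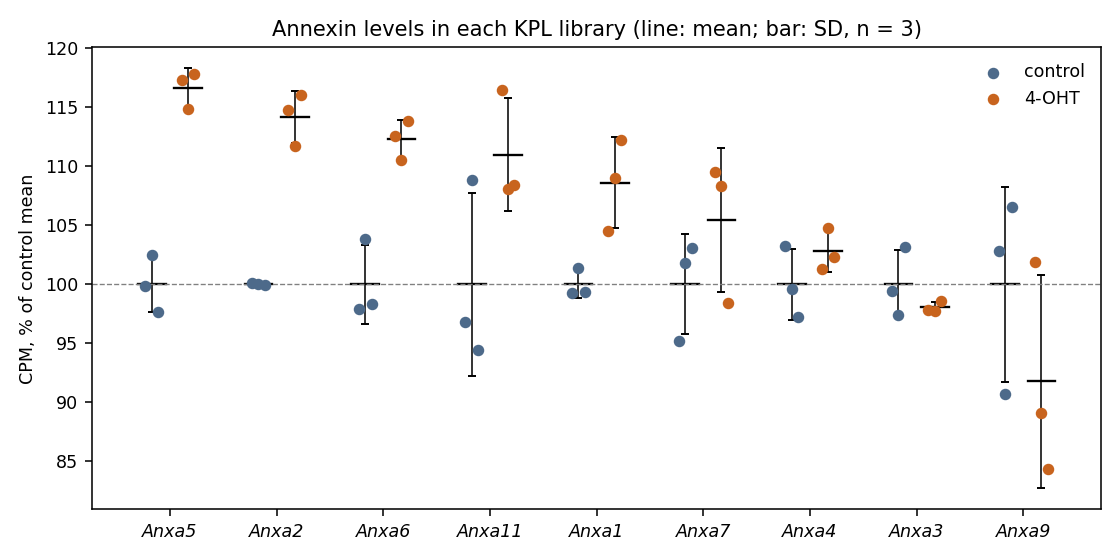
CPM of the 9 tested annexins in each library as a percent of the gene's control mean (y axis, not from 0), with 3 control and 3 4-OHT points per gene, a line at the mean and bars of 1 SD. The 4-OHT points of Anxa5, Anxa2, Anxa6 and Anxa1 lie above all their control points, while the other 5 genes overlap.

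The remaining tested members were closer to control. Anxa7, a calcium-dependent GTPase linked to granule fusion (chromosome 14, 20455261 to 20480133), was at 651, 694 and 704 reads in control and 756, 752 and 679 reads in 4-OHT libraries. Only 4-OHT replicate 3 fell within the control range, and the log2 fold change was 0.08 (SE 0.05), which was 0.04 without control replicate 1 and 0.12 without 4-OHT replicate 3. Anxa4, an annexin of epithelial secretory membranes (chromosome 6, 86736840 to 86793634), stood at 1268, 1219 and 1193 control reads and 1256, 1306 and 1268 reads after 4-OHT, overlapping, with a log2 fold change of 0.04 (SE 0.04) that was 0.02 without control replicate 3 and 0.06 without control replicate 1. Anxa3 (chromosome 5, 96793385 to 96845968) had a depth like that of Anxa1, with 4727, 4615 and 4895 reads in control and 4692, 4715 and 4726 in 4-OHT libraries. All 3 of its 4-OHT values lay within the control range, and the log2 fold change was -0.03 (SE 0.03).

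Anxa9, a divergent annexin whose core lacks the usual calcium sites (chromosome 3, 95296093 to 95315180), had 58, 51 and 60 reads in control and 58, 51 and 48 in 4-OHT libraries. The groups overlapped, and with so few reads the log2 fold change of -0.12 had an SE of 0.17. The RefSeq span of Anxa9 overlaps that of Cers2, which had 8102 reads over the 6 libraries against 326 for Anxa9, and the use of strand in the counting is not given in the sources used here. Anxa8 (chromosome 14, 34085979 to 34100571) had 0 reads in all 6 libraries, which allows up to 3 reads or 0.506 to 0.515 CPM per library. Its span overlaps that of A630023A22Rik, which had 14 reads over the 6 libraries. Of the mouse annexins outside the 10 genes, Anxa13 also had 0 reads, and Anxa10 was at 24, 45 and 46 reads in control and 58, 28 and 42 reads after 4-OHT, overlapping, with a log2 fold change of 0.14 (SE 0.23).

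Summed over the 10 members, annexin reads took 0.414% to 0.417% of a control library and 0.454% to 0.461% of a 4-OHT library. The summed level was 4180 ± 26.9 CPM in control and 4569 ± 47.6 CPM after 4-OHT, 9.32% higher, and the groups did not overlap. The difference was unevenly shared: Anxa2 gave 42.7% of the net summed increase, Anxa5 29.5% and Anxa1 16.5%, while Anxa3 gave -4.07%. CPM is not scaled by transcript length, so the levels do not order the annexins by number of transcripts.

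**Figure D3:**
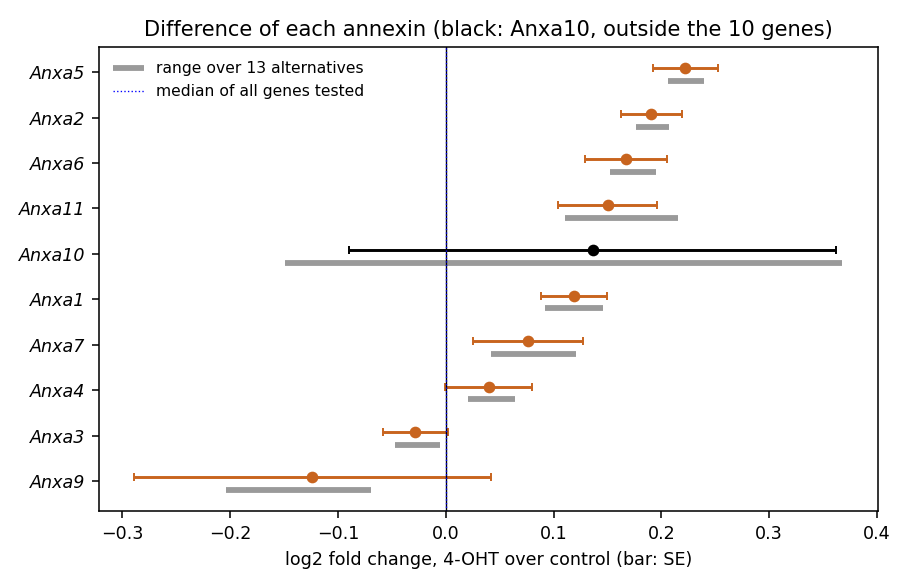
Log2 fold change of 4-OHT over control (x axis) for the 9 tested members and Anxa10, with bars of 1 SE and grey bars for the range over 13 alternative analyses. The estimates run from -0.12 for Anxa9 to 0.22 for Anxa5, and only the grey bar of Anxa10 crosses 0.

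The median log2 fold change of the 9 tested members was 0.12, beside 0.00052 over 13355 genes tested, and 7 of 9 estimates were above 0, beside 50.2% of all genes. By the edgeR quasi-likelihood test with Benjamini-Hochberg adjustment over all genes, 5 of 9 were called higher (Anxa1, Anxa2, Anxa5, Anxa6 and Anxa11) and 0 lower, where 4.61% of all genes tested were called higher and 5.17% lower. The 4-OHT values lay above all control values in 4 of 9 members, beside 12.1% of all genes. Since these values chose the members, nothing is read from the counts. Among 2375 genes with a mean of at least 100 CPM, a level that all tested members but Anxa9 reached, 8.55% were called higher. In the authors' deposited table the same 5 members had an FDR under 0.05 with a higher value, where 3.24% of its genes did, and its log2 fold changes ran from -0.13 for Anxa9 to 0.22 for Anxa5.

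**Figure D4:**
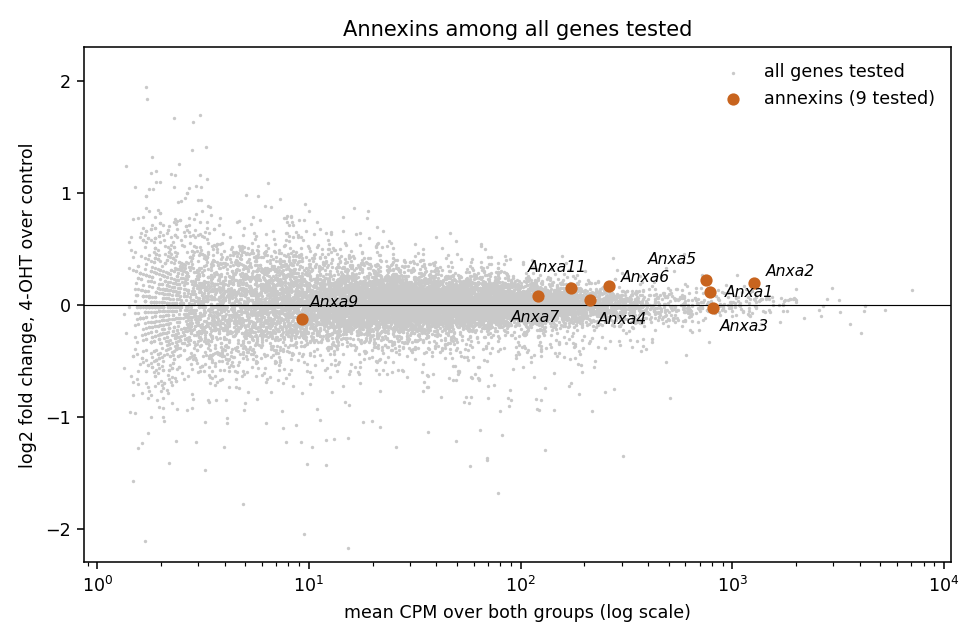
Log2 fold change of 4-OHT over control (y axis) against mean CPM (x axis, log scale) for all 13355 genes tested (grey) and the 9 tested annexins (orange). All annexins but Anxa9 sit at mean levels above 100 CPM, where most genes lie close to 0.

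Which members were called differed between analyses. The calls of Anxa2, Anxa5 and Anxa6 were made in all 13 alternatives, while Anxa1 was not called without control replicate 1 or without 4-OHT replicate 3, and Anxa11 was not called in DESeq2, nor when control replicate 1 or 3 or 4-OHT replicate 1 was left out. Without control replicate 1 the number of members called higher was 3. The direction of the estimate was kept in all 13 alternatives for each of the 9 members, including the lower ones of Anxa3 (-0.05 to -0.0053) and Anxa9 (-0.20 to -0.07). For Anxa10 it turned without control replicate 1 (-0.11) and without 4-OHT replicate 1 (-0.15).

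Genes outside the family that work with annexins were taken from 6 lists chosen by role, with earlier results of these data known. None of them entered the choice of the members. Joined, the lists held 58 tested genes, of which 9 rose, 3 fell and 46 did not pass (edgeR). Their median log2 fold change was 0.03. Of all genes tested, 4.61% were called higher, 5.17% lower and 9.79% in either direction. Among the 2375 genes with a mean of at least 100 CPM, 8.55% were called higher and 12.1% lower. These shares also stand beside the counts of each list below, and whether a list differs from them was not tested.

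Among 7 annexin binding partners, 1 rose and 0 fell (median -0.0028). S100a10, the light chain of the annexin A2 tetramer, stood at 2209, 2163 and 2136 reads in control and 2219, 2129 and 2228 in 4-OHT libraries, named after its values were seen (-0.0028 on the log2 scale, SE 0.03; edgeR, adjusted p 0.983). Within each library the ratio of Anxa2 to S100a10 reads was higher after 4-OHT, 3.62 ± 0.0368 against 3.17 ± 0.0480 (n = 3 each, no overlap), a ratio that no scaling of libraries alters. The ratio of Anxa1 to S100a11, whose protein binds the annexin A1 tail, was 1.72 ± 0.0509 against 1.56 ± 0.0462 without overlap, and that of Anxa11 to S100a6, 0.139 ± 0.00596 against 0.128 ± 0.0131, overlapped. The ratios carry the annexin values that chose the members and are given without a test. The partner that rose was S100a4, a calcium-binding protein of motile cells, from 70.3 ± 4.76 to 85.2 ± 2.17 CPM (0.28 on the log2 scale, SE 0.06; edgeR, adjusted p 0.00050).

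Of 14 tested membrane repair genes, 3 rose and 0 fell (median 0.05). Cavin2, listed in the matrix as Sdpr and encoding a caveola coat protein, was counted at 551, 575 and 583 reads in control and 754, 753 and 774 in 4-OHT libraries. The groups were well apart, and it rose by 0.40 log2 units (SE 0.05; adjusted p 1.5e-09 in edgeR). Syt7, a synaptotagmin of lysosome exocytosis, rose by 0.32 (SE 0.07; adjusted p 0.00037 in edgeR) on the log2 scale. The third was Ehd1 (0.15), a membrane remodelling ATPase named after its value was seen, whose call was lost in DESeq2 (adjusted p = 0.21) and on leaving out control replicate 1 or 3 or 4-OHT replicate 3. Dysf and Myof, the ferlin genes, did not pass (log2 fold changes -0.13 and -0.02), and Cav1 had 0 reads. How reads were assigned to genes is not given, so 0 reads do not by themselves show that a gene was not expressed.

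Plasminogen activation, which annexin A2 with S100A10 promotes at the cell surface, had genes called in both directions: 1 of 7 tested rose and 2 fell (median 0.05). Plau, the urokinase gene, was at 1366, 1379 and 1377 reads in control and 1124, 1086 and 1119 reads after 4-OHT. Its level fell from 236 ± 1.56 to 188 ± 4.09 CPM, with no overlap (-0.33 on the log2 scale, SE 0.04; edgeR, adjusted p 4.6e-10). Plat, which encodes the tissue-type activator and was named after its value was seen, rose from 27.6 ± 3.05 to 38.1 ± 3.14 CPM (0.47 on the log2 scale, SE 0.09; edgeR, adjusted p 0.00011). Plaur, the urokinase receptor gene, also named after its values were seen, did not pass (log2 fold change 0.13, adjusted p = 0.075).

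Of 6 tested genes around annexin A1 signalling, 2 rose and 0 fell (median 0.10). Ptgs2, which encodes cyclooxygenase 2, went from 1444, 1553 and 1468 reads to 1851, 1724 and 1745 (0.23 on the log2 scale, SE 0.04; edgeR, adjusted p 1.6e-06). Pla2g4a, the cytosolic phospholipase A2 gene whose product annexin A1 can inhibit, rose by 0.17 (SE 0.06; adjusted p 0.037 in edgeR), a call lost in 7 of 13 alternatives, with adjusted p up to 0.294 in DESeq2, also without each control replicate and without 4-OHT replicate 2 or 3. The receptor genes Fpr1 and Fpr2 had 0 reads, while Fpr3 stood at 17.3 ± 0.496 and 17.2 ± 1.92 CPM.

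Some scramblases and flippases set how much phosphatidylserine the outer leaflet shows to annexins. Of 15 tested scramblase and flippase genes, 1 rose and 1 fell (median 0.0075). Atp11a, a flippase gene, rose from 59.9 ± 2.62 to 74.1 ± 5.53 CPM (0.31 on the log2 scale, SE 0.06; edgeR, adjusted p 0.00033). Plscr3, a phospholipid scramblase gene, fell by 0.18 (SE 0.06; adjusted p 0.022 in edgeR), a call lost in DESeq2 (adjusted p = 0.199) and on leaving out control replicate 1 or 2 or 4-OHT replicate 1. Of 9 tested copines and other calcium-dependent lipid-binding genes with C2 domains, 1 rose and 0 fell (median -0.07). That gene was Cpne2, from 63.1 ± 2.33 to 75.9 ± 2.75 CPM (0.27 on the log2 scale, SE 0.06; edgeR, adjusted p 0.0013).

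**Figure D5:**
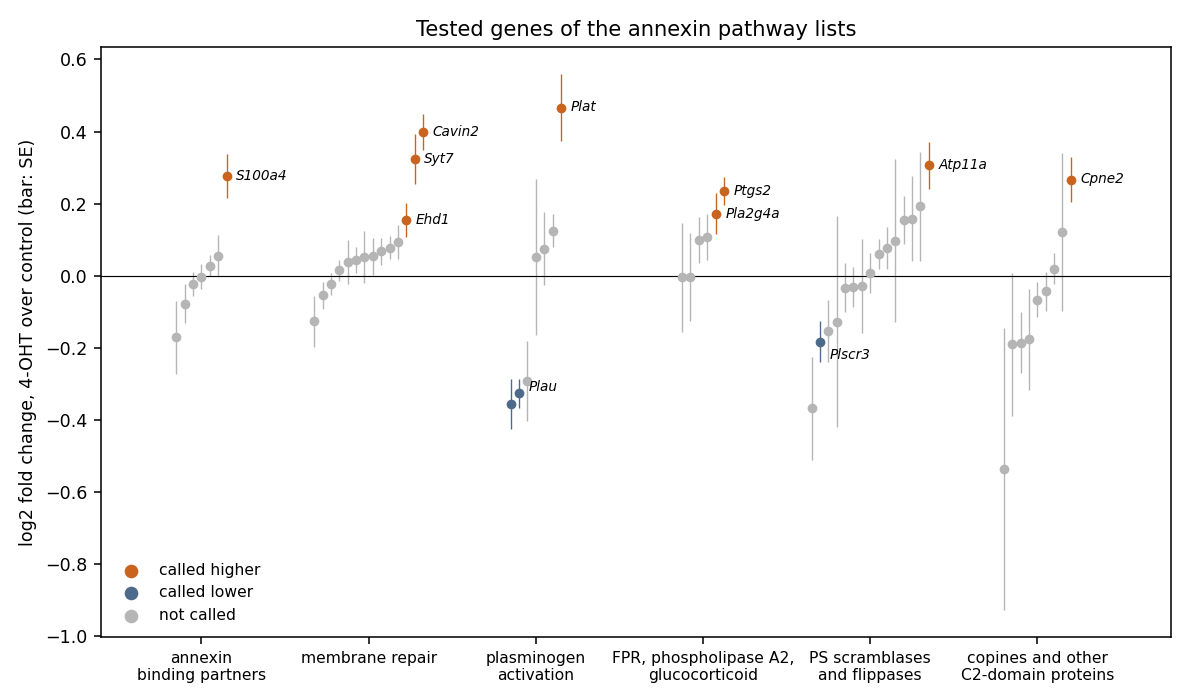
Log2 fold change of 4-OHT over control (y axis) with bars of 1 SE for the tested genes of the 6 lists (x axis), coloured by the edgeR call. The 9 genes that rose are spread over all 6 lists, and the 3 that fell, Plau and Plscr3 among them, belong to 2 lists.

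The genes most like the annexins over the 6 libraries were Gpr56, Snapc1 and Ugdh, with Pearson correlations of 0.995, 0.993 and 0.993 between their log2 CPM and the mean standardised profile of the 9 tested members, among 8111 genes with a mean of at least 20 CPM. The correlation takes no account of the size of a difference. The log2 fold changes were 0.17 (SE 0.05) for Gpr56, 0.17 (SE 0.10) for Snapc1 and 0.42 (SE 0.04) for Ugdh. The largest estimate of a member was 0.22. The 6 libraries form 2 groups that the members were chosen to separate, and the correlations are given as a description. Among the members themselves the correlation with this profile, of which each is a part, ran from 0.966 for Anxa2 and 0.963 for Anxa5 down to -0.40 for Anxa9 and -0.49 for Anxa3.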

How the data were processed

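RNA-seq of polyadenylated RNA from 6 KPL libraries was used. Read counts per Ensembl gene were deposited by the authors as whole numbers without normalisation. The authors' deposited table holds log2 fold changes and log2 mean CPM, and p-values with FDR, per the file headers. Per the submitters' processing notes, the tools were bedtools 2.26.0, edgeR, Bowtie 1.1.2, TopHat2 2.1.0 and Bowtie2, and the builds mm10, GRCm38.p6, GRCh37 and hg19, without roles. How reads were assigned to genes, and whether by strand, is not given in the sources used here.

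Of 38951 lines, 27 repeats were dropped. Genes were filtered with filterByExpr (minimum count 10, minimum total 15), which kept 13355, scaled by TMM and tested in R 4.3.3 by edgeR 4.0.16 (quasi-likelihood F test, robust), two-sided, without a replicate block, adjusted over all genes (threshold 0.05). The SE is the log2 fold change divided by the square root of F. Libraries of the same group differed beyond counting noise (chi-square 1.26 to 1.48 per degree of freedom, genes with at least 20 summed reads), so none was merged. The limits for 0 reads cover counting error only.

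The members, lists, markers and rules were chosen with earlier results of these data known. Named genes were all members, Anxa10, Anxa13, Lin9, the 2 smallest p per list among called genes (where a list had no call, its most abundant gene) and the 3 genes most correlated with the members' mean profile (log2 of CPM plus 0.5). Others are marked as named after their values were seen, as are Fpr1, Fpr2, Fpr3, Cav1, Dysf, Myof, S100a11, S100a6, Ahnak, the overlapping genes and the markers' examples. Some genes are counted in the lists but not reported here by name. Cavin1 and Cavin2 were matched by RefSeq synonyms. Alternatives were other scalings and filters, each library left out, a replicate block, DESeq2 1.42.0 and limma-voom (limma 3.58.1).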

Additional observations from a re-analysis of the deposited data

How the results depend on the processing

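The median log2 fold change of the annexins stayed between 0.111 and 0.129 in all 13 alternatives, and 7 members had an estimate above 0 in each. Over all genes DESeq2 called 208 higher and 362 lower, against 616 and 691. With a replicate block 579 genes were higher and 665 lower, 5 annexins were called higher, and 9 pathway genes were higher and 3 lower. Replicate numbers did not pair the libraries (correlation of same-numbered deviations -0.0083, 0.010 and -0.027). Leaving out 1 library gave 403 to 542 genes called higher (403 without control replicate 1), 3 to 5 annexins called higher (3 without control replicate 1), and 2 to 5 pathway genes called lower (5 without 4-OHT replicate 2); the cause was not tested. Depth limits Anxa9 and Anxa10, each under 61 reads per library. A planned comparison of the calcium-site motif in the annexin proteins was not run, as protein sequences were not used here.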

Other observations

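Ahnak, a giant scaffold protein gene that binds the annexin A2 tetramer, named after its values were seen, had the widest spread among the 7 binding partners in relative terms within the 4-OHT group: 20095, 22224 and 17414 reads, a coefficient of variation of 11.8%, against 3.71% in control (23091, 21429 and 21907 reads). The groups overlapped and the gene did not pass (-0.17 on the log2 scale, SE 0.10; edgeR, adjusted p 0.451).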
